A study of Mus musculus with 12 samples.

Results

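Integrins and laminins were examined as 37 of the 20432 genes of the table, chosen by gene symbol: integrin α and β subunits (26 genes; Itgae was left out by the rule), laminin α, β and γ chains (10 genes) and Itgb3bp, whose symbol the rule matched although it encodes a centromere protein and not a subunit. The 12 poly(A) RNA-seq libraries came from 6 cultured mouse pancreatic ductal adenocarcinoma lines, named 52205, 52419, 52424, 53105, 53369 and 53371. Each line was sequenced once as the parental culture, labelled wild type, and once as a JAK1 knockout derivative, made by infection with the pBabe-Cre-puro retrovirus and selection at 2, 4 and 7 µg/ml puromycin (6 parental and 6 Cre libraries, 11.5 to 18.0 M reads in genes). The labels give no other allele of the lines and do not say whether the derivatives are clones. Lines infected with an empty vector are not analysed here, so infection, selection and time in culture cannot be told apart from loss of JAK1.

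Jak1, the targeted gene, was at 125 to 207 reads per 1000000 normalised reads (counts, CPM) in the parental and 104 to 234 CPM in the Cre libraries. Its gene total therefore did not separate the labels, and the deleted exons are not given. The labelled cell type was checked on 10 epithelial markers, whose summed level was 212 to 13108 CPM over the libraries. In both libraries of line 52419 the E-cadherin gene Cdh1, Epcam, Cldn4 and the keratin gene Krt8 were each under 1 CPM while Krt18 was at 253 and 188 CPM, so that line went against the epithelial label on those markers, and the main counts are also given without it. Line 53369 had 17.5 CPM of Cdh1 in the parental and 36.4 CPM in the Cre library, against 272 to 805 CPM in the other 4 lines. In these bulk libraries fewer cells of a type and less RNA per cell cannot be told apart.

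Integrins are receptors built of 1 α and 1 β subunit that span the cell membrane and tie the extracellular matrix to the cytoskeleton. Laminins are cross-shaped proteins of 1 α, 1 β and 1 γ chain and are the main scaffold of basement membranes, the sheets on which epithelial cells rest. The α3β1, α6β1, α7β1 and α6β4 integrins bind laminins, and α6β4 anchors epithelial cells at hemidesmosomes, where its β4 tail is linked to keratin filaments. In carcinomas of ducts such as those of the pancreas these receptors and ligands are studied for their part in adhesion and invasion.

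The most abundant genes were receptor subunits that bind laminin or RGD ligands and the laminin chains α5, β1 and γ1. Levels between genes were compared as CPM per kilobase of exons of the gene's protein-coding transcripts. On that scale Itgb1, the β subunit shared by most laminin, collagen and fibronectin receptors, ranked first at 248 CPM per kb on average over the 12 libraries, followed by Itga3 at 196, Lamb1 at 86.2, Itgb5 at 80.7, Itga6 at 78.3, Lama5 at 52.5, Lamc1 at 47.7 and Itgav at 39.3 CPM per kb. Of the 37 genes, 25 reached at least 1 CPM in at least 6 libraries and were tested, namely 18 integrin subunits, 6 laminin chains and Itgb3bp. The other 12 were low. Lama4, a chain of vascular and mesenchymal laminins, reached 12.8 CPM, Itga4 5.80, Itga11 3.37, Itgax 2.30, Lamc3 1.61 and Itga9 1.10 CPM in their highest library. Itgad, Itgal, Itgam, Itgb2l, Lama1 and Lama2 had at most 6 reads in any library.

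**Figure D1:**
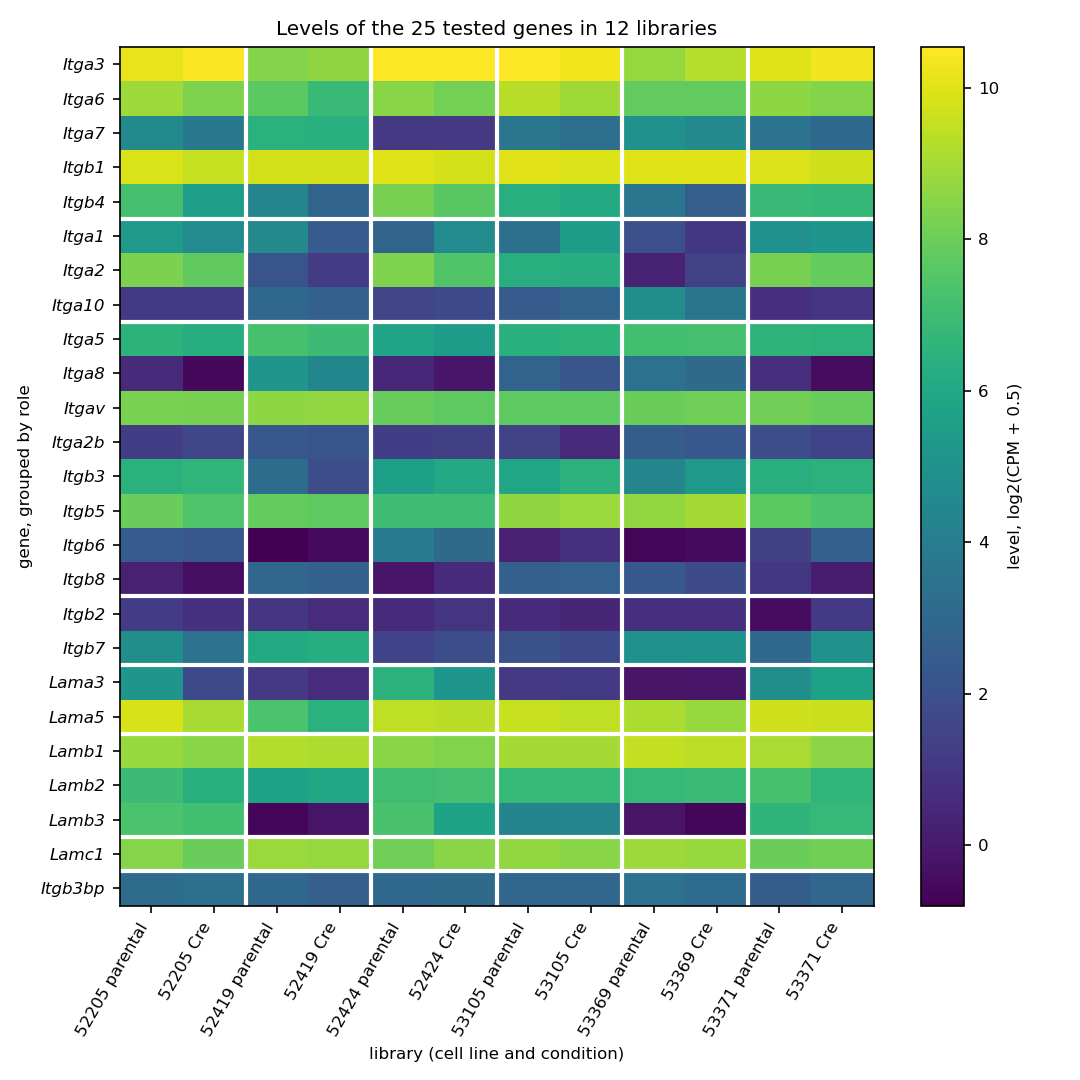
Levels of the 25 tested genes as log2(CPM + 0.5) (colour) in the 12 libraries (columns, parental and Cre side by side for each line), with genes in rows grouped by role. Itgb1, Itga3 and Lamb1 are high in every library, while Lamb3 and Itgb6 are near the bottom of the scale in lines 52419 and 53369.

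The lines differed from each other in nearly all of these genes. Both libraries of a line served as its measurements, and an F test of the line terms (limma, Cre kept in the model, Benjamini-Hochberg adjusted p under 0.05) called 22 of the 25 tested genes. Over all 12734 genes tested 71.1% were called in the same way, so a difference between lines was common in this series. The 3 genes not called were Itgb1 (adjusted p = 0.465 by limma), Itgb3bp (adjusted p = 0.231) and Itgb2, the leukocyte β2 subunit, which had at most 23 reads in a library. Itgb1 lay between 906 and 1046 CPM in the 6 parental lines, a 1.15-fold range, the narrowest of the tested genes.

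The α3 and β3 chains belong to the epithelial laminin that hemidesmosomes bind. Both had among the widest fold ranges between parental lines, 1071-fold for Lamb3 and 230-fold for Lama3. By F, Lamb3 ranked first of the tested genes, while Lama3 was not among the highest. Lamb3 (chr1:193294353-193343878, GRCm38), the β3 chain, was at 159 CPM in parental 52205, 156 in 52424, 99.2 in 53371 and 19.1 in 53105, and at 0.382 in 53369 and 0.149 in 52419. The last 2 values rest on 5 and 2 reads, and the F test gave F = 165 (limma adjusted p = 5.30e-07). Lama3, the α3 chain, was at 88.1 CPM in 52424, 35.8 in 52205 and 27.3 in 53371, and at 1.64 or less in the other 3 lines (F = 19.1, limma adjusted p = 0.000568). Its lowest parental value, 0.382 CPM in 53369, rests on 5 reads, and so does its fold range. Both chains were thus highest in 52424, 52205 and 53371, and 53105 had 19.1 CPM of Lamb3 while its Lama3 was at 1.59 CPM. Cdh1 was also highest in those 3 lines (396 to 805 CPM), was at 272 CPM in 53105 and was lowest in 53369 and 52419. How far the epithelial state of a line goes with its laminin chains was not tested beyond these values.

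Receptor subunits of epithelial cells were also lowest in 52419 and 53369. Above these, Itga2, Itgb4 and Itgb6 fell in the order 52424, 52205, 53371 and 53105, while Itga3 and Itga6 did not. Itga2 (chr13:114833081-114932100), which pairs with β1 as a collagen receptor, was at 325 CPM in parental 52424, 312 in 52205, 298 in 53371, 81.0 in 53105, 3.86 in 52419 and 0.765 in 53369 (F = 143, limma adjusted p = 8.32e-07). Itgb4, the hemidesmosome subunit, was at 295 CPM in 52424, 146 in 52205, 117 in 53371, 81.3 in 53105, 20.4 in 52419 and 11.9 in 53369 (F = 56.6, limma adjusted p = 1.58e-05). Itgb6, which with αv activates latent TGF-β on epithelia, was at 14.3 CPM in 52424, 5.18 in 52205 and 2.05 in 53371 and under 1 in the other 3 lines. Itga3 stayed high in every line but was lower in 52419 (348 CPM) and 53369 (434 CPM) than in the other parental lines (1009 to 1492 CPM). Itga6 was at 206 CPM in 52419, 225 in 53369 and 367 to 646 CPM elsewhere, and its highest level was in 53105.

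Other subunits were highest in 52419 and 53369, while the order of the remaining lines differed between genes. Itga7, a laminin receptor subunit best known from muscle, was at 87.4 CPM in parental 52419, 30.2 in 53369, 23.9 in 52205, 11.9 in 53105, slightly less in 53371 and 1.64 in 52424 (F = 132, limma adjusted p = 1.09e-06). Itga8, which pairs with β1 and binds nephronectin, was at 34.0 CPM in 52419, 10.2 in 53369, 6.48 in 53105 and 1.18 or less in the other 3 (F = 96.9, limma adjusted p = 2.87e-06). Itgb7, the partner of α4 and αE, was at 67.4 CPM in 52419, 29.7 in 53369, 27.9 in 52205 and 2.32 to 7.96 in the others, and Itga5, the fibronectin receptor subunit, at 152 CPM in 52419, 135 in 53369 and 55.8 to 95.1 in the others. Lama4 was at 10.6 CPM in parental 53369 and 7.06 in 52419 and at 1.05 or less elsewhere. Lines 52419 and 53369 thus held the highest parental levels of Itga7, Itga8, Itgb7, Itga5 and Lama4 and the lowest of Lamb3, Itga2, Itgb4, Itga3 and Itga6. Of 8 fibroblast markers 7 were in the table, with a summed level of 10.1 to 1345 CPM in the parental and 10.3 to 729 CPM in the Cre libraries, none at 0 throughout. Their sum was highest in 53369 (1345 CPM parental, of which Col3a1 843) and next in 52419 (181 CPM parental). The summed parental level of 8 mesenchymal markers, such as Vim and Zeb1, was also highest in 53369 (3962 CPM) and 52419 (3261 CPM). It was lowest in 52424 (621 CPM). The part of either marker set in these levels was not tested.

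Promoters are shown for a gene with very unequal levels between lines (Lamb3), for one with the same contrast in a receptor (Itga2) and for the evenly expressed Itgb1, since their levels by line are the clearest pattern in these data. Each is the RefSeq sequence on GRCm38.p6 from 250 bases before to 50 bases after an annotated start, 5′ to 3′ on the gene's strand, in lower case with matches to the motifs searched in capitals.
Lamb3, second annotated start (chr1:193301993-193302292, plus strand): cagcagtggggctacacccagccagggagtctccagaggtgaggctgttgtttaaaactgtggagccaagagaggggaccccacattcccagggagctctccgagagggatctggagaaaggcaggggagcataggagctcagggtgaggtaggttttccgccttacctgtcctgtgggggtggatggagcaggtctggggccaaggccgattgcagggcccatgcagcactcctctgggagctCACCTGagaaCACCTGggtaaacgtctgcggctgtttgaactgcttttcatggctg
Itga2 (chr13:114932051-114932350, minus strand): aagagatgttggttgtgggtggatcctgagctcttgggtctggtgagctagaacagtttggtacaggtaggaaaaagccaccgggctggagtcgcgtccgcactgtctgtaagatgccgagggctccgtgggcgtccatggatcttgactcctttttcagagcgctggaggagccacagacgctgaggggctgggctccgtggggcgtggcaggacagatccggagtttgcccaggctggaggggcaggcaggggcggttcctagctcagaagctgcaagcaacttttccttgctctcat
Itgb1 (chr8:128685404-128685703, plus strand): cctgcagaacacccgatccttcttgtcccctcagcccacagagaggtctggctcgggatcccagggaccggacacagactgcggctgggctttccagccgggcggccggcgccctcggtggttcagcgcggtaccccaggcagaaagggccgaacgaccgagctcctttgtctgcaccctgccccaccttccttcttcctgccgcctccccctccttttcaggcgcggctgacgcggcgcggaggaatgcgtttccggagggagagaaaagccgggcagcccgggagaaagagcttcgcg
The motifs were the AP-1 site TGANTCA, the STAT site TTCNNNGAA and the E-box CACCTG, each on both strands, and the E-box was chosen after the levels were seen. The Lamb3 window shown held 2 E-boxes, beginning at bases 245 and 255 of the window on either side of the start. The window of the first Lamb3 start, the Itga2 window and the Itgb1 window held none of the 3 motifs. Both Lamb3 starts lie inside the gene span given above. First and second count only these starts, and the 5′ end of that span was not searched. CACCTG was in 20.2% of all 32851 promoters of the table and in 8 of the 28 that belong to the 25 members listed there. AP-1 was in 7.81% of all and 3 of the 28, and STAT in 8.30% of all and 3 of the 28. The Itgb1 window was 67.3% G and C with 27 CpG, against 59.3% and 5 CpG in the Lamb3 window and 59.3% and 13 CpG in that of Itga2.

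Since a laminin trimer holds 1 chain of each class, the make-up of the α and of the β chains was compared within each library as shares of the summed CPM per kb. Lama5, the α chain of most epithelial and vascular basement membranes, made up 88.1 to 99.7% of the α chains in the parental lines. Lama3 made up 11.9% in parental 52424, 3.91% in 52205, 3.35% in 53371 and under 1% in the rest. In parental 52419 and 53369 Lama4 came second to Lama5, at 1.17 and 1.75 CPM per kb. Lama3 was at 0.152 and 0.0356 CPM per kb there. Lamb3 made up 26.1% of the β chains in 52424, 24.2% in 52205, 13.7% in 53371, 3.36% in 53105 and under 0.06% in 52419 and 53369. In the parental libraries the share of Lamb3 was above that of Lama3 except in 52419 and 53369, where both were under 1%. Itgb4 was at most 14.9% of Itgb1 and Itgb4 together (parental 52424).

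**Figure D2:**
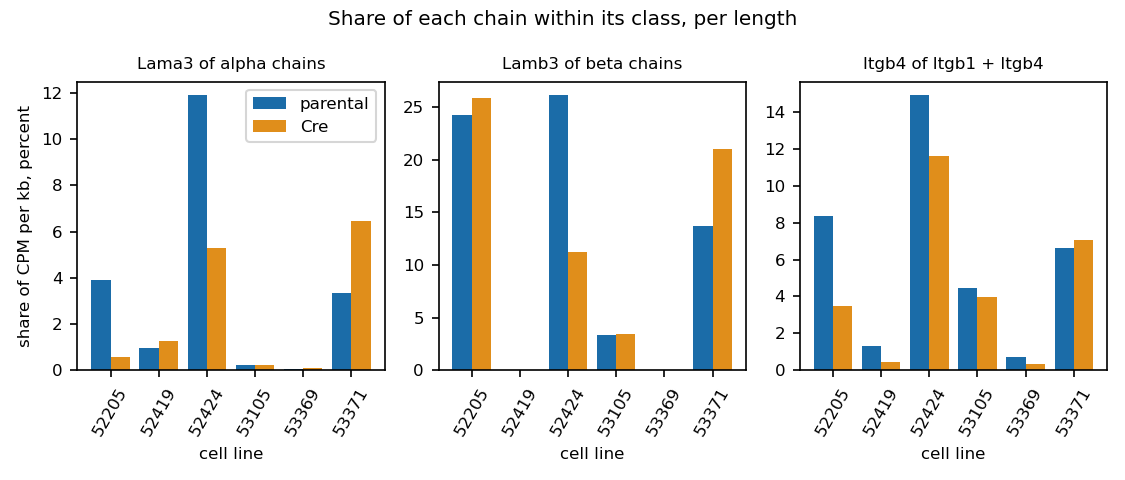
Share (percent of summed CPM per kb) of Lama3 among laminin α chains, Lamb3 among β chains, and Itgb4 among Itgb1 and Itgb4, in the parental (blue) and Cre (orange) library of each line, 1 library per bar. In 52424 the share of Lamb3 is 26.1% in the parental and 11.2% in the Cre library, and Lamb3 is barely visible in 52419 and 53369.

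Each Cre culture was then set against its own parental line, to ask what differs in these genes between cultures labelled wild type and JAK1 knockout. Integrin and laminin genes were more often lower than higher, by amounts that did not pass the test over all genes. Itgb4, Itga6, Itga7, Itga8 and Lama5 were lower in the Cre library of all 6 lines, which are 4 receptor subunits, 3 of them of laminin receptors, and the major laminin α chain. For Itga7 in 52424 the levels were closer together than 1 read (19 parental and 22 Cre reads), so the direction of that pair is not settled. Of the 25 tested genes 0 passed limma at a Benjamini-Hochberg adjusted p under 0.05 in either direction, where 0.0236% of all genes were called lower and 0.0% higher. At an unadjusted p under 0.05 the same 5 genes were lower and 0 higher, against 8.18% of all genes lower and 6.96% higher. On the recovered reads edgeR called 0 of the 25, against 0.0393% of all genes lower, and DESeq2 called 1, Itgb4, as lower, against 1.63%. Lower in all 6 pairs were 5 of 25 genes (20%), against 4.56% of all genes, and 0 were higher in all 6, against 4.11%. Estimates lay below 0 for 19 of the 25 genes (12 of 18 integrin subunits, 6 of 6 laminin chains and Itgb3bp) against 50.1% of all genes, with a median log2 change of -0.13 against -0.00024 over all genes. A lower level was not particular to these genes. Of 8 mesenchymal markers 3 were lower and 0 higher at an unadjusted p under 0.05, 2 were lower in all 6 pairs, and the median was -0.18. With a single library for every culture, the spread behind each p-value is the spread of the change between lines. Without 52419 limma still called 0 of the 25, 5 were lower and 1 was higher at an unadjusted p under 0.05, the median was -0.15, and 18 of the 25 differed between the remaining lines, where 51.0% of all genes did.

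**Figure D3:**
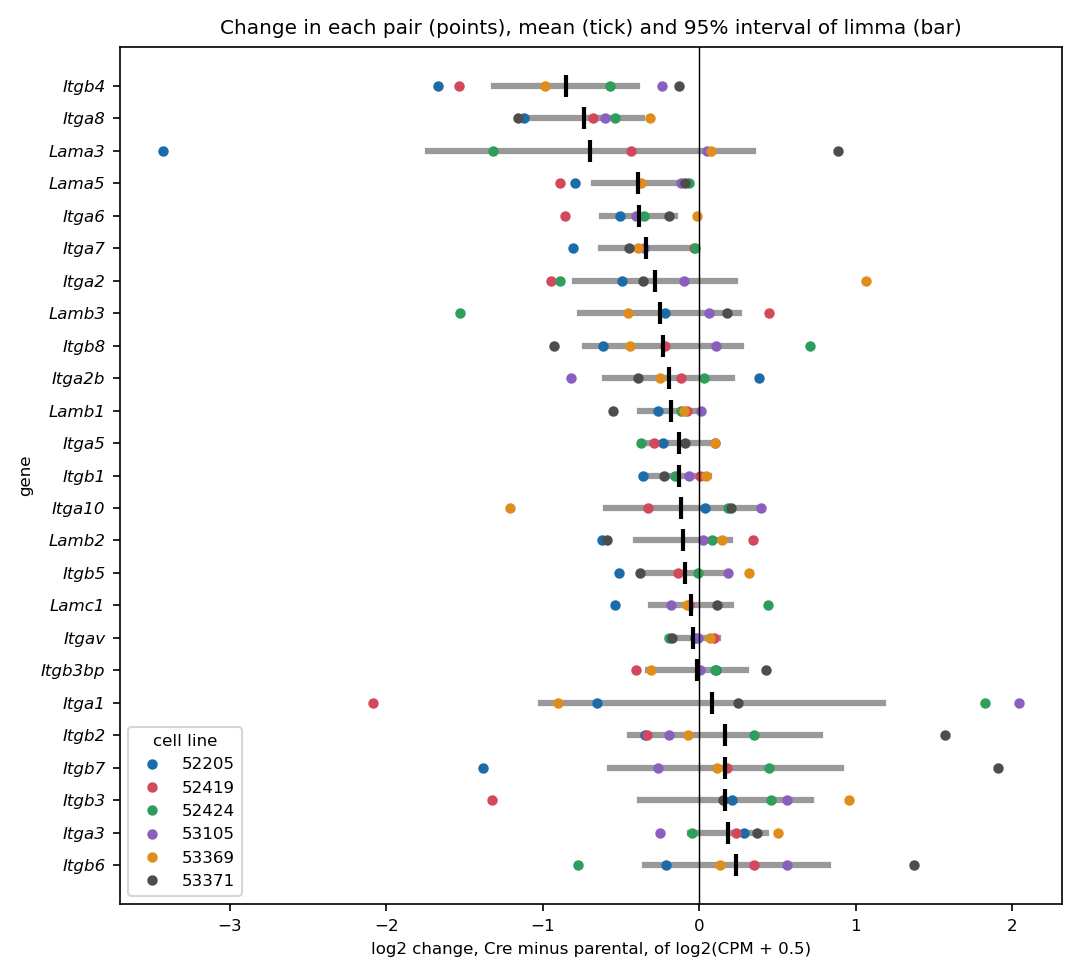
Change from the parental to the Cre library as the difference of log2(CPM + 0.5) (x axis) for the 25 tested genes (rows, ordered by mean), with a coloured point for each line, a black tick for the mean and a grey bar for limma's 95% confidence interval. All 6 points of Itgb4, Itga8, Lama5, Itga6 and Itga7 lie below 0, and the points of Lama3 and Itga1 spread widest.

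Among laminin receptors, Itgb4 (chr11:115974725-116008412, GRCm38) had the largest change. It was at 11.9 CPM at the lowest, 99.4 at the median and 295 at the highest of the parental lines, and at 5.79, 57.2 and 199 CPM in the Cre lines. The groups overlapped, while each Cre library was below its own parental library, from 146 to 45.4 CPM in 52205, 20.4 to 6.69 in 52419, 11.9 to 5.79 in 53369, 295 to 199 in 52424, 81.3 to 69.0 in 53105 and 117 to 107 in 53371. The log2 change was -0.85 (SE 0.20, 95% confidence interval -1.31 to -0.40, limma adjusted p = 0.177). The exact sign-flip permutation p was 0.0313, the smallest that 6 pairs allow. Any gene lower in all 6 pairs has that value, so it adds nothing to the count of pairs. DESeq2 gave -0.86 with an adjusted p of 0.00921 (Benjamini-Hochberg) and edgeR an adjusted p of 0.214. The ratio of parental to Cre ranged from 3.21 in 52205 and 3.05 in 52419 to 1.18 in 53105 and 1.09 in 53371. Without 52205 the log2 change was -0.69, and without 52419 it was -0.72. The gene was chosen with its lower level in these data already known. An antisense transcript overlaps 8.41% of its exonic bases, and the protocol names no step that would mark the strand.

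Itga6 (chr2:71786886-71858427), the only α partner of β4 and also a partner of β1, was at 206, 381 and 646 CPM (lowest, median and highest) in the parental and 114, 309 and 487 CPM in the Cre lines. Its log2 change was -0.39 (SE 0.10, 95% confidence interval -0.62 to -0.15, limma adjusted p = 0.205), from -0.86 in 52419 to -0.02 in 53369, and DESeq2's adjusted p was 0.0501. Itga7 (chr10:128933421-128958286) was at 1.64, 17.9 and 87.4 CPM in the parental and 1.60, 11.3 and 85.2 CPM in the Cre lines, a log2 change of -0.34 (SE 0.13, limma adjusted p = 0.289). Its pairs ranged from -0.81 in 52205 to -0.04 in 52419 and -0.02 in 52424. In 52424 Itga7 had 19 parental and 22 Cre reads (1.64 and 1.60 CPM), levels closer together than 1 read. By contrast Itga3, the most abundant α subunit, was at 348, 1081 and 1492 CPM in the parental and 409, 1279 and 1447 CPM in the Cre lines, a log2 change of 0.18 (95% confidence interval -0.06 to 0.43, limma adjusted p = 0.448), with 4 pairs higher. Itgb1, the shared β subunit, was at 906, 996 and 1046 CPM in the parental and 748, 907 and 1031 CPM in the Cre lines, a change of -0.13 (95% confidence interval -0.31 to 0.06). Both intervals include 0, so neither a change nor its absence was shown for these abundant partners.

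**Figure D4:**
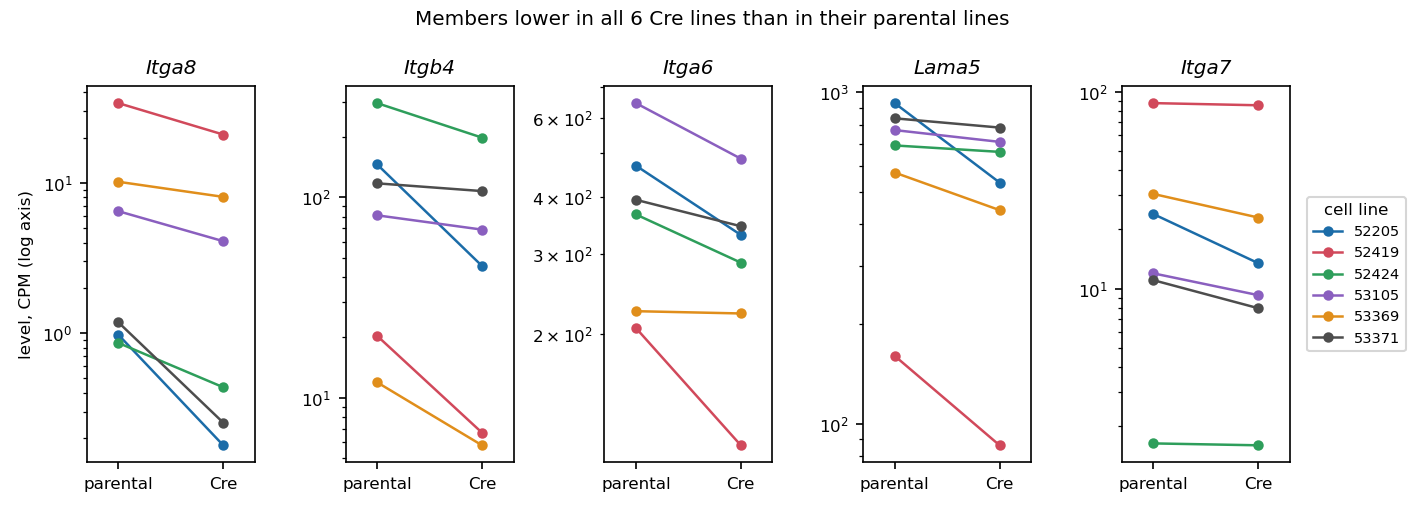
Levels in CPM (log axis) of the 5 genes that were lower in all 6 pairs, in the parental (left) and Cre (right) library of each line, with a line joining the 2 libraries of 1 cell line. Every joining line slopes down, Itgb4 most steeply in 52205 and 52419, and the spread between cell lines exceeds the change within them. For Itga7 in 52424 the levels are closer together than 1 read.

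Among receptors for fibronectin, vitronectin and other ligands with the RGD sequence, Itga8 (chr2:12106632-12301985) was the only one of 8 with an unadjusted p under 0.05. It was at 0.861, 3.83 and 34.0 CPM in the parental and 0.179, 2.26 and 21.0 CPM in the Cre lines. Its log2 change was -0.74 (SE 0.17, limma adjusted p = 0.177). The size depended on the constant added before the logarithm: with 0.1 CPM in place of 0.5 it was -1.05, and with 2 CPM it was -0.43. The ratio of parental to Cre was highest in 52205 and 53371, where it rests on 13 and 2 and on 15 and 3 reads, and in 52419, with 457 and 273 reads, it was 1.62. An antisense transcript overlaps 6.40% of its exonic bases. Itga5 was at 55.8, 93.3 and 152 CPM in the parental and 43.0, 90.1 and 145 CPM in the Cre lines (log2 change -0.13, limma adjusted p = 0.481). Itgav, the α subunit of the vitronectin receptors, was at 213, 263 and 391 CPM in the parental and 211, 253 and 418 CPM in the Cre lines, a change of -0.04 with a 95% confidence interval of -0.20 to 0.12. Its partners Itgb5 (-0.09), Itgb3 (0.17), Itgb6 (0.24) and Itgb8 (-0.23) did not pass either, nor did Itga2b, the platelet α subunit (-0.19, 1.01 to 5.28 CPM). Of 7 platelet markers 6 were in the table, summing to 1.11 to 144 CPM in the parental and 0.845 to 63.9 CPM in the Cre lines, with Ppbp giving 142 CPM of the highest sum, and none was at 0 throughout. Itgb3 was higher in 5 pairs, with 20.1 to 39.4 CPM in 53369, and lower in 52419, with 8.84 to 3.23 CPM. Without 52419 its change was 0.47 (limma, unadjusted p = 0.0052, adjusted p = 0.367). That fit leaves out the only pair that was lower, so its p-value is no separate sign of a change.

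Collagen receptor subunits differed in direction between lines. Itga1 was at 6.63 CPM in the parental and 24.8 in the Cre library of 52424 and at 10.0 and 42.8 in 53105, but at 22.8 and 4.99 in 52419, for a mean log2 change of 0.08 (SE 0.49, limma adjusted p = 0.957). With 1 library per line and condition these differences have no replicate check. Itga2 was lower in 5 pairs (-0.29, limma adjusted p = 0.570), and in 53369, where it went from 10 to 30 reads, it was higher. Without 53369 the change of Itga2 was -0.56 (limma, unadjusted p = 0.0027, adjusted p = 0.287). That fit leaves out the only pair that was higher, so its p-value is no separate sign of a change. Itga10 was at -0.12. In the GENCODE annotation 34.5% of its exonic bases are shared with another gene on the same strand. How reads on those bases were counted is not given in the sources used here.

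Of the 9 subunits of leukocytes and of the α4 and α9 receptors 7 were below the filter, and Itgb2 was at 1.73 CPM or less, while Itgb7 reached 76.3 CPM in Cre 52419. Neither Itgb2 (0.16) nor Itgb7 (0.17) passed the test. Itgb3bp, the centromere protein, was at -0.01. Itgb7 was lower in Cre 52205 (27.9 CPM parental, 10.4 Cre) and higher in Cre 53371 (7.96 CPM parental, 31.2 Cre). Of 12 leukocyte markers 10 were in the table, with a summed level of 2.39 to 27.4 CPM in the parental and 2.49 to 10.3 CPM in the Cre lines, most of it Cd68. Ptprc, which encodes the pan-leukocyte protein CD45, was at most 1.02 CPM, and no marker of the list was at 0 in all 12 libraries.

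Among the laminin chains, Lama5 (chr2:180176373-180225904) was lower in all 6 pairs. It was at 161, 731 and 929 CPM in the parental and 86.4, 599 and 784 CPM in the Cre lines, a log2 change of -0.39 (SE 0.13, 95% confidence interval -0.67 to -0.11, limma adjusted p = 0.257). The change was -0.89 in 52419, -0.79 in 52205 and -0.38 in 53369, and between -0.12 and -0.06 in the other 3. It differed between lines (F = 46.2, limma adjusted p = 3.02e-05). The estimates of its partner chains were nearer 0. Lamb1 was at 365, 534 and 732 CPM in the parental and 337, 447 and 683 CPM in the Cre lines (-0.18, limma adjusted p = 0.352, 5 pairs lower), Lamb2 was at -0.10 and Lamc1 at -0.05.

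The epithelial chains Lama3 and Lamb3 did not go in the same direction in all lines. Lama3 was at 35.8 CPM in the parental and 2.87 in the Cre library of 52205, a 12.5-fold lower level, and at 88.1 and 35.0 in 52424, while the order was turned in 53371, at 27.3 and 51.0 CPM. Its mean log2 change was -0.70 (SE 0.46, limma adjusted p = 0.491), and it was -0.15 without 52205. Lamb3 went from 156 to 53.8 CPM in 52424, where both chains were lower in the Cre library. In 52205, by contrast, Lamb3 went from 159 to 137 CPM beside the 12.5-fold difference of Lama3. Over the 6 pairs Lamb3 was at -0.25 (limma adjusted p = 0.610), and without 52424 it was at 0.0020. The 10 epithelial markers did not all go with Lama3. Of them 6 were lower and 4 higher in Cre 52205, 9 lower and 1 higher in Cre 52424, and 1 lower and 9 higher in Cre 53371. Their sum was 8864 CPM in the parental and 13108 in the Cre library of 52205, 12886 and 8785 in 52424, and 6237 and 8630 in 53371. In 52205 the keratin genes Krt7, Krt8, Krt18 and Krt19 were the 4 higher ones. Epcam, an epithelial adhesion molecule, had 79.3 CPM in the parental against 11.1 in the Cre library of 52205, 366 against 127 in 52424 and 69.2 against 100.2 in 53371. Esrp1, an epithelial splicing regulator, was in the same 3 lines at 23.1 and 1.17, 109 and 33.7, and 9.53 and 18.5 CPM. Cdh1 was at 682 and 591, 805 and 675, and 396 and 425 CPM. The part of epithelial state in the Lama3 values was not tested.

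Genes that work with these receptors and chains were read from 7 lists. None of the 84 tested genes on them passed limma at an adjusted p under 0.05. At an unadjusted p under 0.05, 13 were lower and 3 higher, against 8.18% and 6.96% of all genes. Of the 84, edgeR called 0 and DESeq2 called 4, all lower, against 1.63% of all genes called lower by DESeq2. The partners of laminins in basement membranes were the list with most of these, 5 of 14 tested genes lower at an unadjusted p under 0.05 (35.7%, against 8.18% of all genes) and 0 higher, with a median log2 change of -0.19. Col4a5, a type IV collagen chain, was at 110 ± 41.1 CPM in the parental and 73.3 ± 35.5 in the Cre lines (SD, n = 6), a log2 change of -0.62 and lower in 6 pairs (limma adjusted p = 0.140, DESeq2 adjusted p = 0.000985). Its neighbour Col4a6 was at -0.81 (limma adjusted p = 0.240), and its level was 118 CPM in the parental and 81.8 CPM in the Cre library of 53369 and at 6.38 CPM or less in every other library.

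Other integrin ligands had 3 of 15 tested genes lower and 1 higher at an unadjusted p under 0.05, with a median of -0.19. Fn1, fibronectin, was at 4265 ± 2145 CPM in the parental and 3113 ± 2221 in the Cre lines (SD, n = 6), a log2 change of -0.57, lower in 6 pairs (limma adjusted p = 0.177, DESeq2 adjusted p = 0.00109). Spp1, osteopontin, a ligand of αv integrins, was at -0.61 and lower in 5 pairs (limma adjusted p = 0.248). Of 9 laminin receptors other than integrins 2 were lower at that level, Bcam (-0.52), a receptor for α5 laminins, and Sdc4 (-0.29), a syndecan, with a median of -0.20.

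Of 11 tested activators and inhibitors of integrins 7 had an estimate above 0 (median 0.06), with Tln2, a talin that switches integrins on, at 0.56 and higher in 6 pairs (limma adjusted p = 0.253) and Apbb1ip at -0.40. Of 23 genes of the adhesion complex 13 were above 0 (median 0.04), with the scaffold gene Bcar1 at 0.19 and higher in 6 pairs (limma adjusted p = 0.264) and Tns1, a tensin, at -0.39. Of 6 tested partners of α6β4 in hemidesmosomes and tetraspanin complexes 5 had an estimate below 0 (median -0.13), and the tetraspanin genes Cd81 (-0.42) and Cd151 (-0.14) had the smallest p. The exception was Plec, which encodes the plectin that holds β4 to keratins, at 0.10. Of 6 tested genes whose products process laminins or integrins, all had estimates below 0 (median -0.10), with Mmp14 at -0.23 and Bmp1 at -0.15.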

How the data were processed

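Gene-level RNA-seq values of 12 libraries were used. The authors deposited a table of 20432 genes whose signal values are counts per 1000000 reads of the normalised library (CPM), and a log2 table of 10903 of these genes, whose rule for choosing genes is not given in the sources used here. FastQC 0.11.9, featureCounts, edgeR and the GRCm38 (mm10) build are named in the submitters' processing notes, and the aligner is not given in the sources used here. Per the labels, no strand-marking step is named, so antisense transcripts cannot be separated. Values were whole multiples of 1 read (0.0569 to 0.0896 CPM) for 100% of values within 0.01 read, and recovered reads summed to 11.5 to 18.0 M per library.

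Gene identifiers were given symbols from RefSeq (19448), GENCODE (11) or none (973). The 12734 genes with at least 1 CPM of the column total in at least 6 libraries were fitted with limma 3.58.1 (R 4.3.3) on log2(CPM + 0.5), with the cell line as a block, since both libraries of a line come from that line. Same-line libraries correlated at 0.73 to 0.95 in their deviations from the group means. Fold changes on this scale understate those of low genes. Calls used Benjamini-Hochberg adjusted p under 0.05 over all 12734 genes. A sign-flip permutation test over 6 pairs was exact and two-sided. edgeR 4.0.16 and DESeq2 1.42.0 on recovered reads, other pseudocounts, filters, scalings and weights, the log2 table and leaving out each line were alternatives. Lengths are exon unions of protein-coding transcripts. The fits were also run on simulated data in which each changed gene had the same Cre effect in every line. Those runs did not cover changes that differ between lines, as they do here.

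Among the members, those named are the 8 with the smallest limma p, the 6 with the largest F between lines, and Lama3, Lamb3, Itga6, Itgb4, Itgb1 and Itgav. In each pathway list the 2 genes with the smallest p are named, and other genes were named after their values were seen. Of the 38 genes that the symbol rule finds, 1 is not reported here and is in none of the counts of members. The members and lists were chosen with earlier results of these data known.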

Additional observations from a re-analysis of the deposited data

Results flagged for a closer look

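The tested genes were searched for a single line standing apart from the other 5 in the parental levels, the Cre levels or the changes, by Dixon's gap ratio. The search covered 75 sets of 6 values and found 7, where chance gives about 1 in 20. Line 52419 stood apart in 5 of them. Its level of Lama5, the main laminin α chain, was 7.33 on the log2(CPM + 0.5) scale in the parental library, with the nearest line at 9.16, and 6.44 in the Cre library, with the nearest at 8.79. Lamb2, the β2 chain, was at 5.68 in parental 52419, with the nearest line at 6.78. Itgb3, the β3 subunit of the vitronectin receptor, was at 1.90 in Cre 52419, with the nearest line at 5.32, and its log2 change there was -1.33, with the nearest at 0.15.

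Itgb2, the leukocyte β2 subunit, was at -0.44 in parental 53371 (3 reads), with the nearest line at 0.61, and its log2 change there was 1.57, with the nearest at 0.35.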

How the results depend on the processing

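The count of 0 members called in either direction by limma held under every alternative with limma and with edgeR, and DESeq2 called 1 lower (Itgb4, -0.86). DESeq2 also called Col4a5 (-0.62), Col4a6 (-1.09), Fn1 (-0.57) and Spp1 (-0.62). Without the replicate block, which ignores the paired lines, 0 of the 25 genes were lower at an unadjusted p under 0.05, against 5 with it. Higher at an unadjusted p under 0.05 was 1 gene with no filter on low values and 1 with library weights, against 0. With a line left out in turn, calls were 0 in both directions, 4 to 6 genes were lower and 0 to 1 higher at an unadjusted p under 0.05, the median change was -0.18 to -0.11, and 18 to 22 genes differed between lines, where 51.0% to 73.7% of all genes did. The gene higher at that level was Itgb3 without 52419 (0.47) and Itga3 without 53105 (0.27).

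The main fit called none of these genes, so it held no called value that could turn sign. The 5 values that DESeq2 called had the sign of the main fit. With library weights the uncalled changes of Itga1 (-0.38), Itga2 (0.027), Itgav (0.0093), Itgb5 (0.039), Lamb2 (0.036) and Cd151 (0.0014) turned sign. So did some with a line left out: Itga1 ranged from -0.31 (without 53105; -0.27 without 52424) to 0.51, Itga10 from -0.22 to 0.098 (without 53369), Itgb2 from -0.12 (without 53371) to 0.26, Itgb7 from -0.18 (without 53371) to 0.48, Itgb3bp from -0.10 to 0.065 (without 52419; 0.046 without 53369), Lamb3 from -0.39 to 0.0020 (without 52424) and Lamc1 from -0.15 to 0.046 (without 52205). Without turning sign, 1 line also moved uncalled changes by over 1.5 times, such as Itga2 (-0.56 without 53369), Itgb5 (-0.0046 without 52205), Itgb6 (0.0096) and Itgb8 (-0.092) without 53371, Itgb3 (0.0097 without 53369), Lamb2 (-0.00067 without 52205) and Lama3 (-0.15 without 52205). The cause was not tested.

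Depth limits the lowest genes, since 1 read is 0.0569 to 0.0896 CPM and a count of 0 allows up to 3 reads, for counting error only. The log2 table held 18 of the tested genes.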
